A study of Mus musculus with 6 samples.

Results

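Bipolar cells are the interneurons of the retina that carry the signal of rods and cones to amacrine and ganglion cells. In the mouse they are among the last neurons to be born, mostly after birth, and their terminal genes switch on later still as their synapses form. ON bipolar cells sense glutamate through the metabotropic receptor mGluR6, whose signal closes the cation channel TRPM1, while cone bipolar types are told apart by transcription factors and calcium-binding proteins. Expression of 10 genes known for their use in bipolar cells, Vsx1, Bhlhe23, Irx5, Irx6, Grm6, Trpm1, Nyx, Cabp5, Scgn and Prkca, was examined in newborn retina. They were picked by name, and all 10 had a transcript cluster (a probe group covering a transcript) annotated to that gene alone, among 19938 genes with such a cluster. Where a gene had several, the cluster with the highest mean signal over the 6 arrays stood for it, a choice that concerned Nyx and no other gene of the 10.

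The arrays carried retinal RNA from mice at postnatal day 0 on the C57BL/6NTac background, 3 that lacked Meg2 and 3 labelled Meg2 wild-type. Ptpn9 encodes Meg2, a protein tyrosine phosphatase. Per the labels each sample joined both retinae of 1 animal. Neither the deleted part of the gene nor the cells that lack it are named in the sources used here. Values are normalised log2 signals.

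The signal of Ptpn9 was lower where the label reads knockout (9.39 ± 0.17 against 9.97 ± 0.067, SD, n = 3), a log2 difference of -0.58 (SE 0.087), although probes outside the deleted part do not test the deletion. Of the markers of the labelled tissue, 15 of 15 progenitor genes, 13 of 14 ganglion cell genes, 15 of 18 amacrine and horizontal cell genes and 13 of 18 rod and cone genes lay above the median signal. Both replicate 2 arrays carried signals of both sexes, from a source not tested, although the label gives 1 animal per array. They read Xist, expressed from the inactive X chromosome, at 12.54 and 12.55 and the Y-linked Eif2s3y at 7.66 and 7.76. The replicate 1 arrays read Xist at 12.58 and 12.73 with Eif2s3y at 5.08 and 5.49, and the replicate 3 arrays Xist at 6.26 and 6.52 with Eif2s3y at 10.03 and 9.39. The differences of the 10 genes are therefore also given without replicate 2. Arrays of the same number deviated together from their group means, so a limma fit with a replicate block is given beside the plain one where it matters. Xist and Eif2s3y followed the replicate number alike in both groups. The block, and leaving out a replicate number, therefore also take in any difference by sex.

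The sequences before the start sites of 3 terminal bipolar genes are shown because the homeodomain factors OTX2 and CRX, known to act in bipolar cells, lay high in the signal distribution at birth while these genes lay lower. OTX2 and CRX recognise the core TAATCC. Promoter entries in RefSeq's table for GRCm38.p6 were found for 8 of the 10 genes, in 9 windows, and not for Irx5 and Irx6. Each line gives the 250 bases before the start, 5′ to 3′, with TAATCC and its reverse complement in capitals. The windows are chr7:13397905-13398154 (plus strand) for Cabp5, chr7:64153585-64153834 (plus strand) for the upstream start of Trpm1 and chr11:50850435-50850684 (plus strand) for Grm6.
Cabp5: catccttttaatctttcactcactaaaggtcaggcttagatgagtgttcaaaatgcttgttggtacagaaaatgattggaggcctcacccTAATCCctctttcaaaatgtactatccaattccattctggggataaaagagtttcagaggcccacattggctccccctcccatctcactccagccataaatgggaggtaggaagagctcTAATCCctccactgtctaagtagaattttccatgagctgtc
Trpm1: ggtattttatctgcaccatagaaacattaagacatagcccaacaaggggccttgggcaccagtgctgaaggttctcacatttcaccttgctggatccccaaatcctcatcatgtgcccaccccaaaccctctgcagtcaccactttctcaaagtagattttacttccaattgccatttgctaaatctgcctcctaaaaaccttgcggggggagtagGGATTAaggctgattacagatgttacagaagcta
Grm6: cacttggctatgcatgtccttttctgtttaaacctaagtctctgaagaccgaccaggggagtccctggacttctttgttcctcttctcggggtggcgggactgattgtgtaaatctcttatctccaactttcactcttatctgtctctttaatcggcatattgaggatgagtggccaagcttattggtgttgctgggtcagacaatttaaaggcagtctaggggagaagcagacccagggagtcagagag

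The Cabp5 window held 2 matches, which began 160 and 41 bases before the start, and the Trpm1 window held 1, which began 34 bases before the start. That Cabp5 start lies inside the annotated span of the gene, chr7:13385960-13408887. No window at the upstream end of Cabp5 was found. No match lay in the Grm6 window, in that of the other Trpm1 start, or in those of Vsx1, Bhlhe23, Nyx, Scgn and Prkca. The windows shown thus include each one with a match. The genes not shown also lay below Otx2 and Crx in signal. Over all 32851 windows of this length, 6.25% held at least 1 match on either strand and 0.295% held 2 or more. The homeodomain core TAATTA, which begins with the same letters as TAATCC, was in 0 of the 9 windows and in 4.84% of all. A match describes these letters and shows no binding.

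At birth the 10 genes spread over most of the range of retinal signals. On the wild-type arrays 5 of the 10 lay below the median over genes (8.52) and 5 above it, and the median percentile was 44.9. Trpm1, Grm6, Vsx1 and Bhlhe23 sat between the 27.4 and the 33.3 percentile and Scgn at 11.8. Cabp5 lay at 56.5, Prkca at 72.7, Irx6 at 74.8, Nyx at 76.1 and Irx5 at 84.7. The wild-type signals of Grm6, Vsx1 and Bhlhe23 differed by less than their spread over arrays, as did those of Irx6 and Nyx. The signal of a cluster also depends on its probes, so this is an order of signals and not of transcript amounts. Signals of unexpressed genes are not 0 on such arrays. Odorant receptor genes, known for olfactory epithelium, give a measure of that: the 1027 genes named Olfr had a median signal of 5.45, at the 8.07 percentile, and their 95th percentile was 7.19. Of the 10 bipolar cell genes 8 lay above that level, Trpm1 and Scgn below it, or 7 with Nyx read by its dimmer cluster, described below. That level fell between Trpm1, at the 27.4 percentile of all genes, and Grm6, at 32.8. Most genes with a cluster thus also lay above it, a share near that of the 10. The 20 liver and pancreas genes gave a higher level, with a median signal of 6.70 and a 95th percentile of 7.68. Only Cabp5, Prkca, Irx6, Irx5 and the brighter Nyx cluster lay above 7.68.

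**Figure D1:**
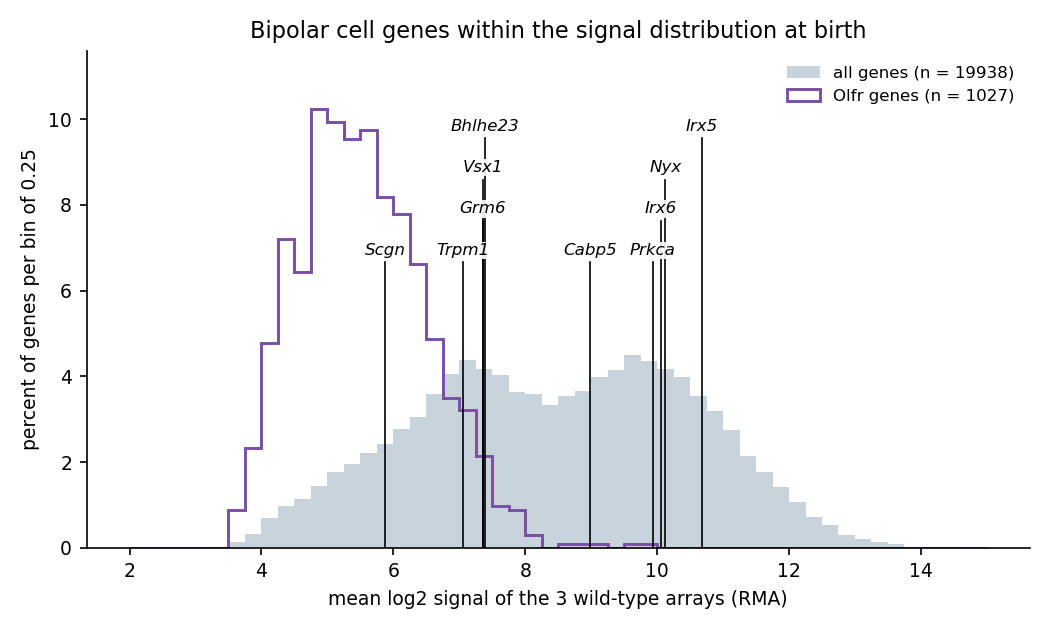
Histogram of the mean log2 signal on the 3 wild-type arrays for 19938 genes (filled) and for 1027 Olfr genes (outline), as the percent of genes per bin, with a vertical line for each of the 10 bipolar cell genes (heights carry no value). Scgn lies among the Olfr genes, Trpm1, Grm6, Vsx1 and Bhlhe23 at their upper edge, and Cabp5, Prkca, Irx6, Nyx and Irx5 beyond nearly all of them. Nyx is drawn by its brighter cluster, whose placing goes against its annotation.

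Among the transcription factors, the Iroquois homeodomain genes Irx5 and Irx6, which are neighbours on chromosome 8, were bright. Irx5, used in cone bipolar cells, read 10.63, 10.64 and 10.76 on wild-type arrays and 10.59, 10.60 and 10.80 on knockout arrays, in the order of replicates 1 to 3. The groups overlapped fully, with a difference of -0.0087 on the log2 scale (SE 0.076). Irx6, known from OFF cone bipolar cells, read 10.07, 9.95 and 10.14 in the wild type and 9.89, 9.74 and 9.88 in the knockout. Every knockout array of Irx6 was below every wild-type array.

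Irx6 had the largest difference of the 10, -0.22 (SE 0.072, 95% interval -0.38 to -0.053), so the knockout signal was 0.861 of wild type. It was lower in 3 of 3 replicate numbers, by -0.18, -0.21 and -0.25. The unadjusted p was 0.0152 and the adjusted p 1.00 (limma), with 3.43% of the 23410 tested clusters at an unadjusted p under 0.05. With the replicate block the unadjusted p was 0.00258 and the adjusted p 0.514 (limma), against 8.81% of clusters. Without replicate 2 the difference was also -0.22, with an unadjusted p of 0.0244 (limma). Leaving out wild-type replicate 3 or knockout replicate 2 gave differences of -0.17 for each and unadjusted p of 0.0635 and 0.054 (limma). Irx3, the third gene of this Iroquois cluster, differed by 0.030 (SE 0.055) at the 53.0 percentile. Whether Irx6 differed from Irx5 in its response was not tested.

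Vsx1, a paired-like homeodomain factor of cone bipolar cells, read 7.39, 7.41 and 7.29 in the wild type and 7.62, 7.46 and 7.41 in the knockout. Its knockout arrays all lay above the wild-type arrays, the closest pair at 7.41 and 7.41, and the highest was knockout replicate 1. The difference was 0.14 (SE 0.073, 95% interval -0.027 to 0.30), with an unadjusted p of 0.0902 without the block and 0.0368 with it (limma, adjusted p = 1.00 and 0.545). It was higher in 3 of 3 replicate numbers. Without knockout replicate 1 it was 0.076, and without replicate 2 of both groups 0.18. Bhlhe23, a basic helix-loop-helix factor needed for rod bipolar cells, read 7.42, 7.32 and 7.41 in the wild type and 7.60, 7.45 and 7.32 in the knockout. These groups overlapped, and knockout replicate 1 was again the highest array. The Bhlhe23 difference was 0.071 (SE 0.079), and without that array it was -0.00024. For Vsx1 and Bhlhe23 alike, 3.60% of Olfr genes were brighter on wild-type arrays. Both wild-type means lay below 7.68, the 95th percentile of the liver and pancreas genes.

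Of the 3 postsynaptic genes of ON bipolar cells among the 10, Grm6 and Trpm1 lay below the median signal. Grm6, the gene of mGluR6, read 7.29, 7.36 and 7.41 in the wild type and 7.37, 7.41 and 7.33 in the knockout. All 6 arrays lay within 0.12 of each other, the narrowest range of the 10 genes. Its difference was 0.017 (SE 0.060, 95% interval -0.12 to 0.15). Of the Olfr genes 3.60% were brighter than Grm6 on wild-type arrays.

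Trpm1 read 7.18, 6.96 and 7.01 in the wild type and 7.21, 7.02 and 7.04 in the knockout, a difference of 0.039 (SE 0.080). Trpm1 was higher in the knockout in 3 of 3 replicate numbers, by 0.033, 0.054 and 0.028, although the groups overlapped. In both groups the replicate 1 array was the highest. Of the Olfr genes 6.72% were brighter. Trpm1 is also a gene of melanocytes and pigment epithelium, and carries in an intron the microRNA gene Mir211, looked at after the values of Trpm1 were seen. The mature product is shown from RefSeq (GRCm38.p6, chr7:64205831-64205852, plus strand) with its seed, bases 2 to 8, in capitals.
mmu-miR-211-5p: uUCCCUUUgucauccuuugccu

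The Mir211 cluster read 8.31, 8.10 and 8.17 in the wild type and 8.36, 8.09 and 8.07 in the knockout, likewise highest on the replicate 1 arrays. Of the pigment epithelium and melanocyte list 16 of 18 genes were below the median signal, with the visual cycle gene Rpe65 at 5.60 and the tyrosinase gene Tyr at 5.75. The mean log2 signal of that list lay between 7.50 and 7.60 in the wild type and between 7.50 and 7.70 in the knockout, and the replicate 1 arrays were highest there too, at 7.60 and 7.70. In the knockout comparison 11 of the 18 were above 0, Tyr by 0.19 (SE 0.071; limma, unadjusted p = 0.0242, adjusted p = 1.00). Tyr was the 1 of 18 at an unadjusted p under 0.05 without the block (limma), beside 3.43% of clusters. Of the Olfr genes 38.9% were brighter than Tyr, so its signal was not above that background. Dim signals in general stood a little higher on the replicate 1 arrays: the mean over Olfr genes was 5.58 and 5.60 there and between 5.50 and 5.54 on the other arrays. The part of either in the Trpm1 values was not tested.

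Nyx, the gene of nyctalopin, which is needed to place TRPM1 at the ON bipolar synapse, had 2 clusters that disagreed. The brighter one, which stands for the gene here, read 10.19, 10.10 and 10.09 in the wild type and 10.19, 10.11 and 9.999 in the knockout. The dimmer one read 6.47, 6.57 and 6.66 in the wild type and 6.86, 6.80 and 6.59 in the knockout, at the 19.8 percentile. The wild-type means were 3.56 log2 units apart. Cluster numbers of this array run along the chromosomes, and by the order of genes in GRCm38.p6 the 5 clusters on each side of the brighter Nyx cluster were all of chromosome 9 genes, 10 of 10. Nyx lies on the X chromosome, where 10 of 10 neighbours of the dimmer cluster also lie. For the other 9 genes, 7 to 10 of the 10 neighbours lay on the gene's own chromosome. The placing of the brighter cluster thus goes against its annotation, and which transcript it reads cannot be told here.

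With the dimmer Nyx cluster in its place, 6 of the 10 genes were below the median and the median percentile was 33.1. The 3 postsynaptic genes then lay between the 19.8 and the 32.8 percentile. The brighter cluster differed by -0.023 between knockout and wild type (SE 0.068) and the dimmer by 0.18 (SE 0.085, 95% interval -0.014 to 0.37; limma, unadjusted p = 0.0652). The groups overlapped in both clusters.

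The calcium sensors and the kinase were unlike one another. Cabp5, a calmodulin-like protein of rod bipolar and some cone bipolar cells, read 8.94, 9.03 and 8.97 in the wild type and 9.26, 8.90 and 9.12 in the knockout. Knockout arrays were both the highest and the lowest for Cabp5, with a knockout SD of 0.18 against 0.044 in the wild type. Its difference was 0.12 (SE 0.089; limma, unadjusted p = 0.22), and without replicate 2 it was 0.24 (limma, unadjusted p = 0.0243, adjusted p = 0.999). Without knockout replicate 2 alone it was 0.21 (limma, unadjusted p = 0.0175), and without knockout replicate 1 it was 0.035.

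Scgn, the gene of the calcium-binding protein secretagogin of cone bipolar cells, was the dimmest of the 10. It read 6.02, 5.73 and 5.89 in the wild type and 5.80, 5.84 and 5.87 in the knockout, so all knockout arrays fell within the wild-type range, and 34.7% of Olfr genes were brighter. The Scgn difference was -0.046 (SE 0.079). Prkca, the protein kinase C alpha gene, marks rod bipolar cells in the mature retina and is also expressed in many other cells. It read 9.89, 9.95 and 9.95 in the wild type and 9.75, 9.91 and 9.93 in the knockout. Prkca was lower in the knockout in 3 of 3 replicate numbers with overlapping groups, by -0.069 (SE 0.066; limma, unadjusted p = 0.322).

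**Figure D2:**
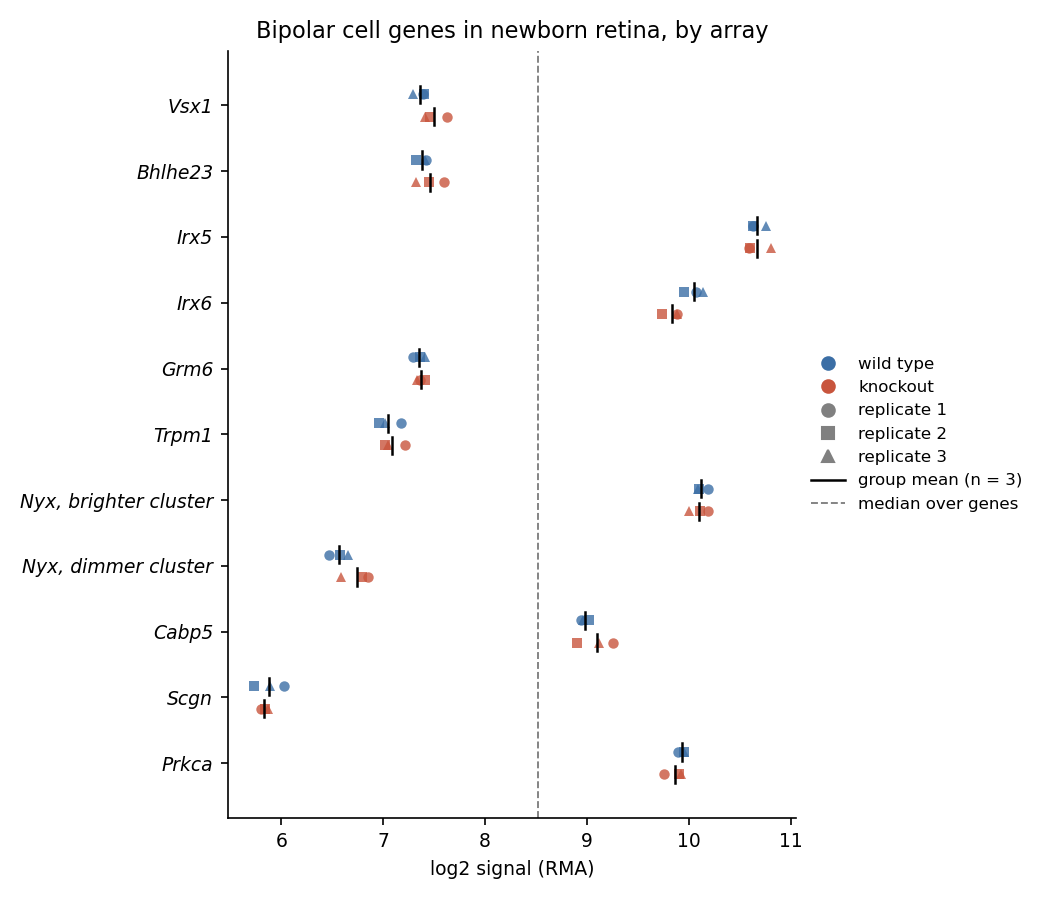
Log2 signal of each array (horizontal axis) for the 10 bipolar cell genes, Nyx by both of its clusters, with wild type in blue above knockout in red, marker shapes for replicate numbers, black bars for group means of 3 arrays and a dashed line at the median over genes (8.52). Of the 10 genes only Irx6 and Vsx1 have groups that do not overlap, and the brighter and dimmer Nyx clusters lie 3.56 apart.

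In limma 0 of the 10 genes passed an adjusted p of 0.05, as did 0% of the 23410 clusters, and with the replicate block 0 of 10 beside 0.00427% of clusters. At an unadjusted p under 0.05 there was 1 of 10, Irx6, against 3.43% of clusters, and with the block 2 of 10, Irx6 and Vsx1, against 8.81%. Without the block the count was 0 without wild-type replicate 3, and 2 without knockout replicate 3 (Irx6 and Vsx1) or without replicate 2 of both groups (Irx6 and Cabp5). Over the 23410 clusters the counts in these settings were 679, 755 and 706, in the same order. With 1 array left out the cluster count ranged from 636 to 1298, against 803 with all arrays. Groups did not overlap in 2 of 10 genes, where the share over all clusters was 8.43%. Among 10 genes a single one moves these shares by more than the background itself. Without replicate 2 of both groups the differences of the genes for which it is not given above were 0.031 for Trpm1, 0.043 for Bhlhe23, -0.043 for Nyx, -0.082 for Prkca, -0.0025 for Grm6, 0.0039 for Irx5 and -0.12 for Scgn, the last against -0.046 with all arrays. The differences were above 0 in 5 and below 0 in 5, with a median of 0.0042 beside 0.0012 over all clusters. The 95% intervals of the 10 genes lay between -0.38 and 0.32. RNA came from whole retinae, in which fewer cells of a type and less RNA per cell cannot be told apart.

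**Figure D3:**
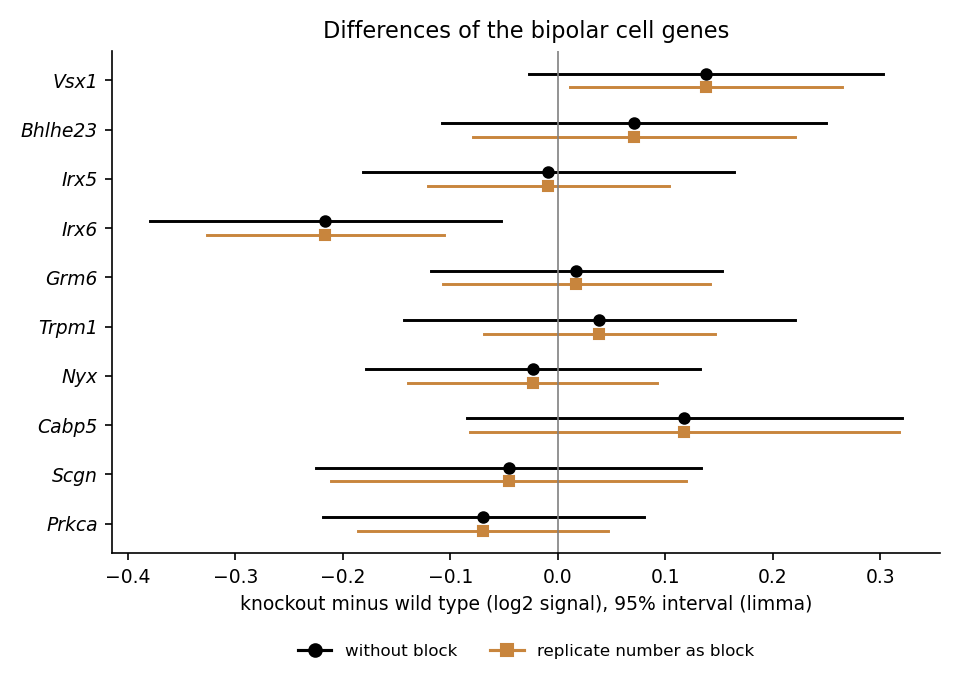
Knockout minus wild type on the log2 scale with 95% intervals from limma, without the block (black circles) and with the replicate number as a block (orange squares), 3 arrays per group. The interval of Irx6 lies below 0 in both fits, that of Vsx1 above 0 only with the block, and those of the other 8 genes include 0 in both; no gene passed adjustment.

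Irx6 also had the widest range over the 6 arrays, 0.40. The 3 clusters above the median signal that followed it most closely belonged to Ybx3, a cold shock domain protein gene, Nagk, the gene of N-acetylglucosamine kinase, and Ddx21, an RNA helicase gene. Pearson's r over the 6 arrays was 0.993, 0.991 and 0.991, and 213 of the 10972 clusters compared had an r above 0.9. These arrays share their replicate pairs and their genotype difference, so the values describe them only.

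Factors known to act for or against the bipolar fate, some also used in other retinal cells, lay higher in the signal distribution than most of the 10. The median percentile of the 15 measured factors was 80.4, and 12 of them lay above the median signal. Otx2, a homeodomain factor required for bipolar cells and photoreceptors, lay at the 99.6 percentile with a wild-type signal of 13.15 ± 0.042 (SD, n = 3). Neurod4, a basic helix-loop-helix factor that favours the bipolar fate, was at 99.4, Prdm1, a repressor of that fate in photoreceptor precursors, at 95.6, and Crx at 88.9. Isl1, used in ON bipolar and also in ganglion cells, lay at 80.4, Prdm8 at 75.5 and Lhx4 at 67.9. The lowest was Sebox, at 25.4. In the knockout comparison 0 of 15 had an unadjusted p under 0.05 (limma), with and without the block, where 8.81% and 3.43% of all clusters did.

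Other genes listed with the mGluR6 cascade were mixed. Gnao1, the G protein alpha subunit that mGluR6 activates and that neurons use widely, was at the 99.3 percentile, and its partner Gnb3, also used by cones, at 98.7. Gng13, the gamma subunit of ON bipolar cells, lay at 35.6, Rgs11, which speeds up deactivation, at 47.7, the orphan receptor gene Gpr179 at 46.5 and the synaptic protein gene Lrit3 at 54.3. Pcp2, a modulator in rod bipolar cells, was at 40.3. The list of 16 genes also held Slc12a5 (68.7), Kcnv2 (57.2) and Car8 (44.25), which are not proteins of the cascade itself. Of the 16 genes 9 were above the median, Slc12a5 and Kcnv2 among them. At an unadjusted p under 0.05 there were 0 of 16 with or without the block (limma), again beside 8.81% and 3.43% of all clusters. Markers of mature bipolar types were dimmer, with 19 of 24 below the median and a median percentile of 41.2. The peptide gene Cck lay at 16.4 and the kainate receptor gene Grik1 at 16.9, while Pcp4, also in other retinal neurons, was at 85.0.

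Among those mature markers 1 of 24 was lower at an unadjusted p under 0.05 (limma), the cadherin gene Cdh9 of a cone bipolar type (-0.14, SE 0.059), beside 1.74% of clusters in that direction. Its wild-type signal of 6.18 was below the 95th percentile of the Olfr genes, 7.19, so it was not above that background level. With the block 3 were lower, Cdh9, Rcvrn and Slc24a4, beside 4.36%. Rcvrn encodes recoverin, found in photoreceptors and some cone bipolar cells, and differed by -0.23 (SE 0.11). Of 15 genes listed for the ribbon synapse, a structure of photoreceptors and bipolar cells, 14 lay above the median signal and 11 had a difference below 0. The list also held widely expressed genes such as Syt1 (99.25 percentile) and Dag1 (97.2), and genes of photoreceptors such as Tulp1 (79.8). Its levels thus do not describe bipolar cells alone. The median difference of the 15 was -0.042, beside 0.0012 over all clusters. Cacna1f, the calcium channel subunit gene of ribbon synapses, differed by -0.23 (SE 0.072; limma, unadjusted p = 0.0123). It was the 1 of 15 lower at an unadjusted p under 0.05, beside 1.74% of clusters in that direction. With the block (limma) 4 of 15 were lower at that threshold, Cacna1f, Slc17a7, Elfn1 and Tulp1, beside 4.36%. None of the genes of these lists passed adjustment (limma), with or without the block.

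Genes of progenitors and of other retinal neurons lay higher. The median percentile was 97.1 for 15 progenitor genes, 90.3 for 14 ganglion cell genes, 72.4 for 18 amacrine and horizontal cell genes and 66.3 for 18 rod and cone genes, against 44.9 for the bipolar cell genes. Lists of tissue outside the retina were at 32.5 for 17 lens genes and 21.8 for 20 liver and pancreas genes. With the dimmer Nyx cluster the median of the bipolar cell genes was 33.1, about that of the lens genes. Lens genes were above 0 in the knockout comparison in 14 of 17 and endothelial genes in 13 of 14, with per-array list means of 7.53 to 7.71 against 7.48 to 7.60 and of 7.83 to 8.15 against 7.76 to 7.89. Microglia genes were above 0 in 9 of 12, with list means of 7.96 to 8.21 against 7.94 to 8.04, and Muller glia genes in 10 of 12, with 10.32 to 10.43 against 10.30 to 10.32. At an unadjusted p under 0.05 (limma) there were 1 of 17 lens, 4 of 14 endothelial, 3 of 12 microglia and 0 of 12 Muller glia genes, beside 3.43% of clusters, and with the block 4, 7, 4 and 3, beside 8.81%. Of the 3 Muller glia genes 2 were higher and 1 was lower in the knockout. Their part in the values of the bipolar cell genes was not tested.

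**Figure D4:**
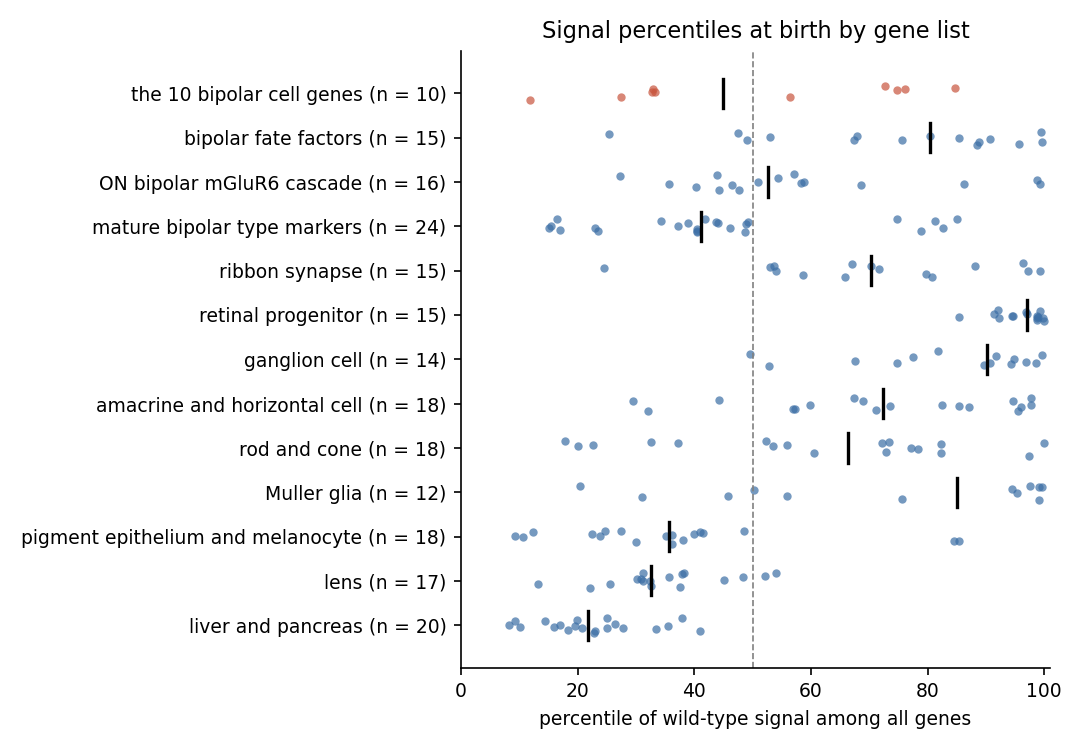
Percentile of the wild-type signal among 19938 genes (horizontal axis) for each measured gene of 13 lists, with black bars at list medians and a dashed line at 50. The bipolar cell genes (red) split into a dim and a bright set around a median of 44.9, while fate factors (80.4), progenitor genes (97.1) and ganglion cell genes (90.3) lie further right and liver and pancreas genes (21.8) further left. Nyx is drawn by its brighter cluster, and with its dimmer cluster the median of the bipolar cell genes is 33.1.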

How the data were processed

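Retinal RNA of 6 newborn mice was measured on whole-transcript arrays. The authors deposited a log2 signal for each transcript cluster, made with Affymetrix Expression Console and RMA, per the submitters' processing notes, which also name Transcriptome Analysis Console; RMA gives all arrays a common distribution, which would hide a shift common to most transcripts. Their versions are not named in the sources used here. Array medians ran from 7.84 to 7.91. Precision is limited by the number of arrays. A platform annotation named 1 gene for 21789 of 35557 clusters, several for 1621 and none for 12147, the last not tested. Entrez identifiers of 21698 matched RefSeq's table of GRCm38.p6, which changed 0 symbols.

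Knockout and wild type were compared in limma 3.58.1 (R 4.3.3; lmFit, eBayes) over 23410 named clusters, with Benjamini-Hochberg adjustment, a threshold of 0.05 and no filter. The script was tested on simulated data. An exact permutation test of 3 against 3 cannot go below p = 0.1 and was not used. The labels call the samples biological replicates. Replicate numbers come from the sample titles, which do not say what they mark; deviations from group means correlated at 0.476, 0.485 and 0.455 between same-numbered arrays, above the 0.1 taken as pairing. Percentiles are ranks of the wild-type mean among 19938 genes, 1 cluster per gene, computed in Python 3.11.15 with pandas 2.3.3; figures used matplotlib 3.10.9.

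The 10 genes and all lists were chosen with earlier results of these data known. All 10 were named; from other lists the 3 brightest and dimmest, those at an unadjusted p under 0.05 and any bipolar fate or cascade gene could be named. Grik1 and the lens, endothelial and Mir211 values were added after values were seen. Alternatives were other normalisations, variance priors, array weights, filters, all rows, the block, other clusters and arrays left out; reading Nyx by its dimmer cluster was added after seeing the data.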

Additional observations from a re-analysis of the deposited data

How the results depend on the processing

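The count of 0 bipolar cell genes past adjustment held in limma under cyclic loess, median centring, array weights, robust variance, a variance trend, both filters, all rows, the replicate block, each array left out and replicate 2 of both groups left out. The count of clusters past adjustment was 0 under each of these except the replicate block, where 1 passed. The filters kept 9 and 5 of the 10 genes. The median difference stayed within -0.023 and 0.032. The difference of Irx6 kept its sign throughout, from -0.27 to -0.17 with 1 array left out, and so did those of Vsx1 (0.076 to 0.18), Cabp5 (0.035 to 0.21) and Prkca (-0.10 to -0.015).

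The differences of the other 6 genes changed sign, and the cause was not tested. With 1 array left out they ranged from -0.013 to 0.046 for Grm6, -0.022 to 0.10 for Trpm1, -0.12 to 0.025 for Scgn, -0.00024 to 0.14 for Bhlhe23, -0.078 to 0.034 for Irx5 and -0.069 to 0.028 for Nyx. Without replicate 2 of both groups Grm6 was at -0.0025 and Irx5 at 0.0039, and with array weights Irx5 was at 0.015. Nyx was at 0.077 as the mean of its clusters and at 0.18 by the dimmer one.

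Between 5 and 6 of the 10 genes lay below the median under every alternative tried. Their median percentile, 44.9, was 45.65 over all 6 arrays, 46.7 on knockout arrays, 53.4 against every row of the table, 40.8 with the median of a gene's clusters and 33.1 with the dimmer Nyx cluster, and 44.8 to 45.1 with 1 wild-type array left out. Dim signals near those of the Olfr genes cannot show whether a gene was expressed, and without detection calls none was made.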
